A study of Sus scrofa with 16 samples.

Results

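In low-fecundity sows, 127 transcripts of 27370 in the expression table were higher in the luteal-phase ovary (LL) than in the follicular-phase ovary (FL). The members were chosen by their values in LL and FL, as the transcripts whose lowest LL library lay above the highest FL library and whose LL mean reached 20 FPKM, fragments scaled for transcript length and library depth. Of 141 transcripts that met both conditions, 14 were left out by their identifiers and are not described here. The ovaries of high-fecundity sows, luteal (LH) and follicular (FH), played no part in the choice, so that LH against FH was the comparison left to test. Each group held 4 sows, and each library was made from the snap-frozen ovary of a single animal. All animals were unrelated Canadian Large White sows kept under the same conditions, and high or low fecundity was assigned from the total number of piglets born. LH and LL ovaries were taken on day 14 after estrus and FH and FL ovaries on day 20. The phenotype records of the study list more parities for the high-fecundity than for the low-fecundity sows, so that parity and fecundity cannot be told apart. Whole ovary was measured, and fewer cells of a type and less RNA per cell cannot be told apart.

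After ovulation the remnant of the follicle becomes the corpus luteum, a gland of steroidogenic and endothelial cells that turns cholesterol into progesterone. Steroidogenic acute regulatory protein (STAR) carries cholesterol to the inner mitochondrial membrane, CYP11A1 cuts its side chain, and the HSD3B enzymes form progesterone. When no pregnancy is recognised, prostaglandin F2 alpha acts on its receptor PTGFR, the gland regresses, and new follicles grow toward the next estrus.

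The table behind these values was sparse. Its steps gave an estimated 166000 to 304000 fragments per library, and a single fragment on a transcript of 2000 nt was worth 1.85 to 3.47 FPKM. These estimates describe the deposited values. The study describes far more clean reads per library, and the reason for the gap is not given in the sources used here. The LL libraries held 4440 to 6081 transcripts at 0.5 FPKM or more, against 7215 to 9660 in the FL libraries. LH1 held 4622, LH2 8132, LH3 7853 and LH4 6226, and the FH libraries 6899 to 9194. Library LH2 stood apart from LH1, LH3 and LH4 for the members, and the main counts are given with and without it. Only 39 members could be linked to a gene symbol, for 38 genes, and the other 88 are named by their transcript identifier. For 21 of the 39 the symbol came from the study's lists of transcripts that differed in LH against LL or FH against FL. Having a symbol is therefore not independent of the LH and FH values, and members with a symbol do not stand for all members. All statements on a gene are statements on the listed transcript, and the listing of a value at 0 does not show that the gene was silent.

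The size of the luteal to follicular difference in low-fecundity sows varied widely among the members, and these values describe the choice and carry no test. Measured as log2(FPKM + 1), a scale that makes the changes of low transcripts look smaller, the LL mean exceeded the FL mean by 0.217 to 8.86, with a median of 1.49. A difference of 2 or more was seen in 47 members, and 9 members were listed at 0 in all 4 FL libraries. The LL mean was 1000 FPKM or more in 18 members, under 100 FPKM in 47, and between these limits in 62. Together the members took 26.4 to 35.4% of the length-weighted FPKM (FPKM times length, which follows the share of fragments) of the LL libraries and 10.9 to 15.2% in FL. The share was 30.2% in LH1, 9.68% in LH2, 26.1% in LH3 and 23.6% in LH4, and in the FH libraries it ran from 13.8 to 22.1%. Just inside the limit of 20 FPKM stood TACR2, the receptor of neurokinin A, with an LL mean of 20.6 FPKM, and ENSSSCT00000023142 with 20.0 FPKM. Just outside stood ENSSSCT00000030349 with 19.7 FPKM and ENSSSCT00000011516 with 19.3 FPKM. The LL values of ENSSSCT00000023142 were 54.2, 11.4, 10.4 and 4.12 FPKM, so that LL1 set most of its mean.

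**Figure D1:**
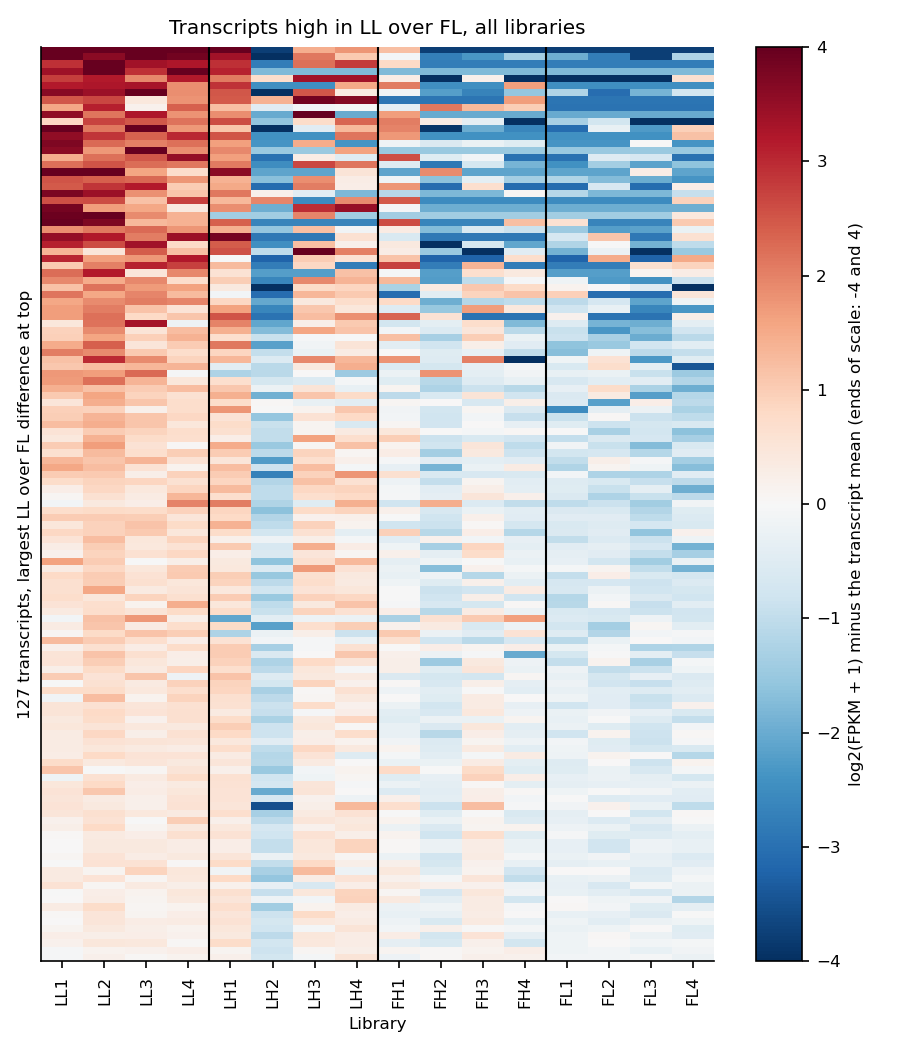
Levels of the 127 transcripts (rows, ordered by the LL minus FL difference) in the 16 libraries (columns), as log2(FPKM + 1) minus the mean of the transcript over all libraries, with values past -4 or 4 drawn in the end colour. LL is high and FL low by the choice of the rows, LH1, LH3 and LH4 are mostly on the LL side, and LH2 is on the FL side.

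In the high-fecundity sows, 3 of 4 luteal ovaries carried the members at levels near those of LL, and the fourth did not. In LH1, 104 of the 127 members were at or above the lowest LL library and 8 were at or below the highest FL library. In LH3 these counts were 75 and 25, and in LH4 they were 66 and 23. LH2 gave the opposite picture, with 2 members at or above the lowest LL library and 121 at or below the highest FL library. On a log2 scale where 0 is the FL mean and 1 the LL mean of each transcript, the median position of the members was 0.994 in LH1, -0.36 in LH2, 0.781 in LH3 and 0.769 in LH4. LH2 was the lowest LH library for 83.5% of the members. Over the 7129 transcripts tested in LH against FH the corresponding share was 13.9%, and it was 28.7% over the 1167 other transcripts with an LL mean of 20 FPKM or more. The median level of those 1167 transcripts was 49.7 FPKM in LH2, between the 45.2 FPKM of LH1 and the 54.8 FPKM of LH4, while the median level of the members was 45.6 FPKM in LH2 and 188, 151 and 139 FPKM in LH1, LH3 and LH4. LH2 also had the most estimated fragments of the LH libraries, and the part of depth or of the tissue sampled in its low member levels was not tested. Its members stood at follicular levels, its luteal label could not be checked with luteal markers, and whether the label is right was not tested. Every LH mean below is that of the libraries labelled LH.

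The follicular ovaries of high-fecundity sows were spread between the FL and LL levels. FH2 and FH4 were close to FL, with median positions of -0.000322 and 0.183 and with 103 and 87 members at or below the highest FL library. FH1 and FH3 were higher, with median positions of 0.479 and 0.543 and with 37 and 42 members at or above the lowest LL library. All 4 FH libraries stayed under the lowest LL library for 60 of the 127 members, and at or below the highest FL library for 14. These counts, and those of the LH libraries above, use the LL and FL limits of the choice. They stand without a share over all transcripts and are a description.

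**Figure D2:**
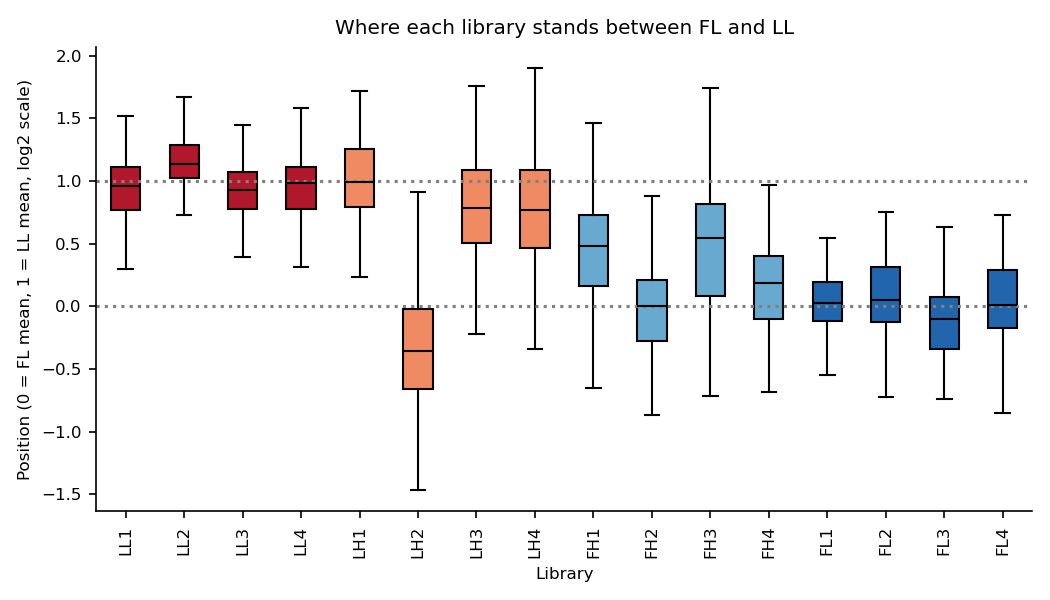
Position of each library between the FL mean (0) and the LL mean (1) of every member on the log2(FPKM + 1) scale. Boxes give the quartiles and median over the 127 transcripts and whiskers reach to 1.5 times the box height, and the medians of LL and FL lie near 1 and 0 by the choice of the transcripts. LH1, LH3 and LH4 have medians from 0.769 to 0.994, LH2 has -0.36, and the FH libraries run from -0.000322 to 0.543.

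The LH mean FPKM was above the FH mean for 110 members and below it for 17, a count without a share over all transcripts beside it. On the log2 scale of the fit below, LH was higher for 96 of the 119 members tested. The differences of single members mostly did not exceed the spread between sows. The comparison was fitted with limma on log2(FPKM + 1) over the 8 high-fecundity libraries, and 119 members passed the filter of 0.5 FPKM in at least 4 of them, while 8 did not, among them both transcripts of HAO2. Of these 119, 8 were higher in LH at the threshold of the study, which asks for an unadjusted p under 0.05 and a change of at least 1 on the log2 scale, and 0 were lower. That is 6.72%, against a background of 0.982% over the 7129 transcripts tested. Only 1 member had every LH library above every FH library, or 0.84% against 0.561% of all transcripts tested. The adjusted p was under 0.05 for 0 members and for 0.014% of all transcripts. An unadjusted limma p under 0.05, in either direction, was found for 8 of 119 members and for 430 of the 7129 transcripts tested. The members were thus near the background in the number of such calls, and differed from it in their direction. The limma voom test on recovered fragments gave 3 members with an adjusted p under 0.05, against 0.533% of all transcripts it tested. These were ENSSSCT00000004476, ENSSSCT00000033896 and the 156 nt transcript ENSSSCT00000036266. The last is shorter than the estimated fragment length, so its fragments were computed from a fixed minimum length and are uncertain. Its LH and FH values overlapped, with FH4 listed at 0. With all 127 members kept and no filter, 7 passed the threshold and the median log2 fold change was 0.42.

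The fold changes of the members lay above those of the other transcripts over most of their range. Their median log2 fold change of LH over FH was 0.39 (quartiles 0.0931 and 0.808), and it was above 0 for 96 of 119, or 80.7% against 30.3% of all transcripts tested. The median over all transcripts tested was -0.36, so the members stood 0.75 above it. The other transcripts with an LL mean of 20 FPKM or more had a median of -0.26, and 19 of 1068 passed higher in LH and 38 lower. The mirror set, 417 transcripts whose lowest FL library exceeded the highest LL library at an FL mean of 20 FPKM or more, had a median of -0.44, and 3 of 405 tested passed higher in LH and 19 lower. Over all transcripts 70 passed higher in LH and 354 lower, which changed to 101 and 267 with median-ratio scaling and to 167 and 178 with quantile normalization. For the members these counts were 13 and 0 and then 11 and 0. The share with a fold change above 0 was 92.4% of members against 40.0% of all transcripts with median-ratio scaling. With quantile normalization it was 88.2% against 49.9%. The median of the members stood 0.84 and 0.53 above that of all transcripts in these 2 scalings.

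Without LH2 more members passed. This library is singled out for its low member values, so leaving it out had to raise LH over FH for them, and the counts below are a description. Of 118 members tested, 32 passed the threshold higher in LH and 0 lower, or 27.1% against 1.96% of the 6171 transcripts tested. In 42 members LH1, LH3 and LH4 all exceeded every FH library, a share of 35.6% against 2.11% over all transcripts. The adjusted p was under 0.05 for 1 member, ENSSSCT00000004476, against 0.0486% of all transcripts. The median log2 fold change of the members became 0.82, and that of all transcripts -0.49. FH2 was the lowest FH library for 44.1% of the members. The share was 15.0% over the transcripts tested in LH against FH and 21.5% over the other transcripts with an LL mean of 20 FPKM or more. With FH2 left out and LH2 kept, 5 members passed and the median of the members was 0.27.

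**Figure D3:**
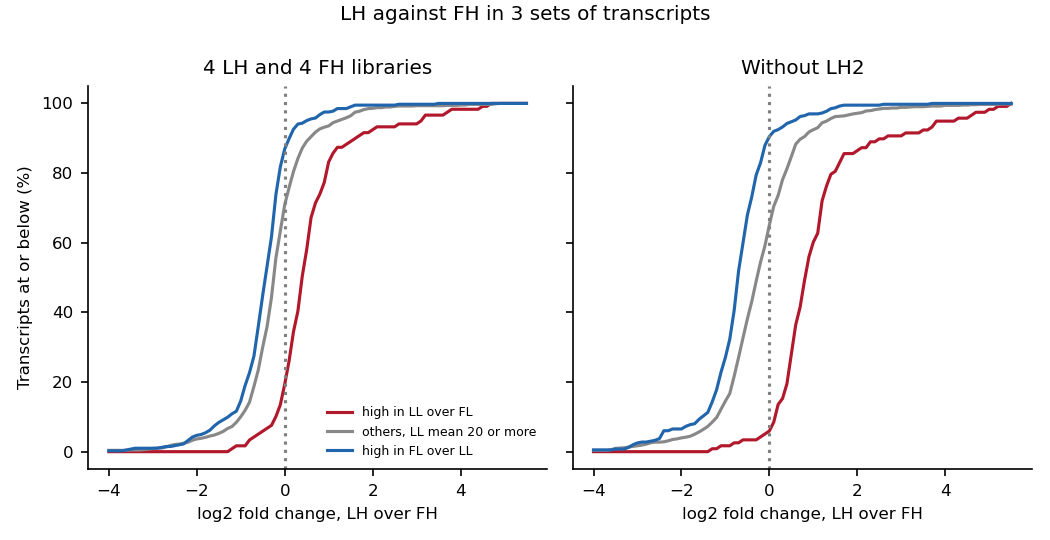
Share of transcripts (vertical axis, percent) whose log2 fold change of LH over FH is at or below the value on the horizontal axis, for the members (red), the other transcripts with an LL mean of 20 FPKM or more (grey) and the mirror set high in FL over LL (blue). The left panel uses 4 LH and 4 FH libraries and the right panel leaves out LH2, and the median of the members is 0.39 on the left and 0.82 on the right.

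The median gap between LH and FH was larger in classes of members with a wider gap between LL and FL. The 47 members with an LL minus FL difference of 2 or more had a median log2 fold change of 0.92 over the 39 tested, with quartiles of 0.16 and 1.84. All 8 that passed the threshold were among them, while 31 of the 39 had a fold change above 0. The 45 members with a difference from 1 to under 2 had a median of 0.50, and the 35 members under 1 had a median of 0.19. Without LH2 the calls were not confined to the widest class. They were then 15 of 38 tested, 17 of 45 and 0 of 35, from the widest gap to the smallest. These 3 classes differed in other ways too, since their median lengths were 1251, 3969 and 5031 nt and their median LL levels 54.3, 275 and 258 FPKM.

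ENSSSCT00000004476, which has no symbol here, had both a high level and a large contrast. Its FPKM was 1627, 2036, 1695 and 1542 in LL1 to LL4 and 64.9, 139, 79.3 and 115 in FL1 to FL4. It was 1502, 62.5, 2275 and 1568 FPKM in LH1 to LH4 and 253, 48.3, 216 and 97.4 FPKM in FH1 to FH4. LH1, LH3 and LH4 were at the LL level and above every FH library, and LH2 was below 3 of the FH libraries. The log2 fold change of LH over FH was 2.58 (SE 0.91), with a limma adjusted p of 0.623, and 3.78 with an adjusted p of 0.015 without LH2. Over all the alternatives its adjusted p ran from 3.79e-06 to 0.988. ENSSSCT00000022831 had the same shape at a smaller size, with 1099, 132, 1537 and 517 FPKM in LH and 374, 133, 318 and 163 FPKM in FH. Its LL values were 2425, 2219, 2060.5 and 1440.0 FPKM and its FL values 183, 126, 105 and 81.5 FPKM. Again LH1, LH3 and LH4 exceeded all FH libraries and LH2 was under every one of them, and the log2 fold change was 1.37 (SE 0.64) with an adjusted p of 0.769.

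ENSSSCT00000005528 was the 1 member whose LH and FH groups did not overlap. It had 84.2, 31.6, 208 and 204 FPKM in LH1 to LH4 and 23.7, 0, 22.3 and 0 FPKM in FH1 to FH4. In LL it had 137, 180.2, 75.2 and 181 FPKM, and in FL it was listed at 0 in FL1, FL2 and FL3 and had 30.6 FPKM in FL4. LH2 was the lowest LH library here as well, at the level of FL4, and FH2 and FH4 were listed at 0. The log2 fold change was 4.41 (SE 1.06) and the adjusted p 0.285. ENSSSCT00000033896 had the smallest p of all members. Its levels were 40.6, 18.9, 109 and 96.1 FPKM in LH and 41.3, 46.8, 9.15 and 25.5 FPKM in LL, and it was listed at 0 in FH1, FH2, FH3 and every FL library, with 23.4 FPKM in FH4. FH4 therefore stood above LH2 and under LH1, LH3 and LH4, and the log2 fold change was 4.62 (SE 1.03) with an adjusted p of 0.209.

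TIMP1 (ENSSSCT00000013426), a secreted inhibitor of matrix metalloproteinases, was the 1 member with a symbol that passed the threshold. It had 50.9, 109, 69.7 and 63.5 FPKM in LL1 to LL4 and was listed at 0 in FL1 to FL4. In LH it had 50.6, 0, 30.7 and 46.2 FPKM, and in FH 10.8 FPKM in FH1 and a listing at 0 in FH2, FH3 and FH4. TIMP1 was thus seen in all luteal libraries other than LH2, and in 1 of 8 follicular libraries. The log2 fold change of LH over FH was 3.17 (SE 1.30), with a limma adjusted p of 0.748, and the FH values rested on an estimated 2 fragments in all. Its relative TIMP2 (ENSSSCT00000018688) had 35.5, 23.5, 31.3 and 19.1 FPKM in LL and 15.2, 0, 0 and 10.7 FPKM in FL. In LH and FH the TIMP2 groups overlapped, with 6.79, 0, 19.9 and 16.1 FPKM and 0, 5.29, 14.5 and 17.6 FPKM, and the log2 fold change was 0.15 (SE 1.14). CTSB (ENSSSCT00000026923), which encodes the lysosomal protease cathepsin B, had 67.9, 23.9, 20.0 and 22.9 FPKM in LL and was above 0 in FL in 1 library, FL3, with 4.21 FPKM. It had 15.3, 0, 13.6 and 0 FPKM in LH and 3.69, 2.44, 3.28 and 2.68 FPKM in FH, so that LH1 and LH3 were above and LH2 and LH4 below all FH libraries, with a log2 fold change of -0.02 (SE 1.10).

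The remaining 3 members past the threshold have no symbol here and were low or listed at 0 in most follicular libraries. ENSSSCT00000011384 had 721, 574, 273 and 406 FPKM in LL and 566, 0, 36.6 and 45.8 FPKM in LH, and 30.2 FPKM in FH1 with a listing at 0 in FH2, FH3, FH4 and all FL libraries. ENSSSCT00000007339 had 53.1, 28.3, 111 and 46.8 FPKM in LL, 122, 9.26, 662 and 83.9 FPKM in LH and 24.6, 6.5, 0 and 14.2 FPKM in FH. ENSSSCT00000023142 had 13.2, 0, 29.2 and 42.0 FPKM in LH, 2.64 FPKM in FH1, and a listing at 0 in FH2, FH3, FH4 and all FL libraries. In each of these, LH1, LH3 and LH4 exceeded every FH library and LH2 did not, and the log2 fold changes were 3.74 (SE 1.59), 3.64 (SE 1.14) and 3.08 (SE 1.18). ENSSSCT00000011384 and ENSSSCT00000007339 are short transcripts, of 518 and 942 nt.

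**Figure D4:**
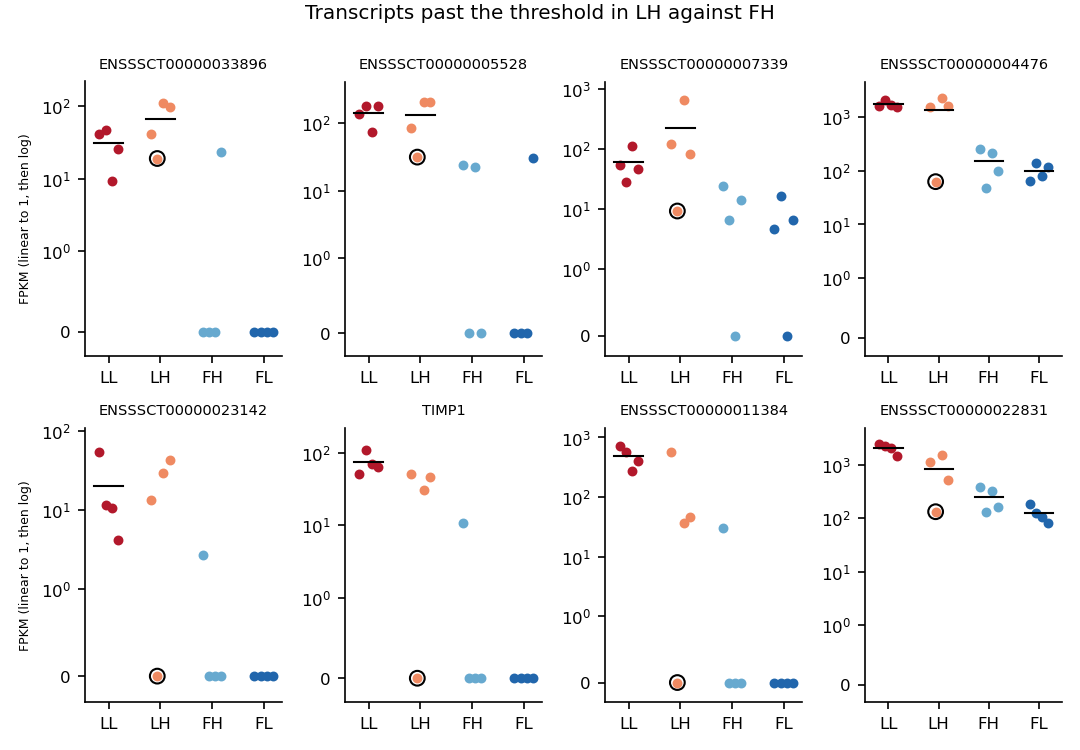
FPKM of the 8 members past the threshold in LH against FH, in LL, LH, FH and FL, on an axis that is linear up to 1 and logarithmic above. Points are libraries in the order of their number, LH2 is ringed, and bars are means, drawn only where all 4 libraries are above 0. LH1, LH3 and LH4 lie above every FH library in all 8 panels, and LH2 does so only for ENSSSCT00000005528.

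In LH against FH, 8 of 119 members tested passed the threshold. The most abundant members with a symbol, which is not independent of the LH and FH values, were like most members in not passing it. GYS1 (ENSSSCT00000003502), the muscle-type glycogen synthase, led them with 9991, 13817, 12605 and 11069 FPKM in LL and 6755, 2757, 4077 and 2194 FPKM in FL. In LH it had 10600.2, 3429, 7418 and 8764 FPKM and in FH 9227, 6764, 6470.3 and 6977 FPKM. The LH and FH ranges overlapped, LH2 was the lowest of the 8, and the log2 fold change was -0.06 (SE 0.40). This single transcript took 6.15 to 8.69% of the length-weighted FPKM of the LL libraries and 1.41 to 4.36% in FL. In the RefSeq gene order of the Sscrofa11.1 assembly, GYS1 lies beside FTL, the gene of the ferritin light chain, which was also a member. FTL (ENSSSCT00000003500) had 21.6, 64.9, 7.68 and 39.3 FPKM in LL and was at 0 throughout FL, although most cells make ferritin. It had 16.7, 4.61, 6.09 and 6.54 FPKM in LH and 4.93, 32.2, 17.8 and 14.3 FPKM in FH, with FH2, FH3 and FH4 above LH2, LH3 and LH4. Whether reads of 1 gene were counted to the other was not tested, and the levels of both are uncertain.

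PLPP5 (ENSSSCT00000017227), a phosphatase of phospholipids, had 3029.6, 3533, 2764 and 1758 FPKM in LL and 926, 729.6, 785 and 835 FPKM in FL. Its LH values were 2119.7, 697, 1396 and 844 FPKM and its FH values 1361, 758, 1284 and 1014 FPKM. LH1 was the only high-fecundity library at an LL level, LH2 was the lowest of the 8, and the log2 fold change was 0.09 (SE 0.40). TMEM63A (ENSSSCT00000011876), a membrane channel opened by mechanical force, had 673, 869.9, 969 and 907 FPKM in LL and 416, 55.8, 303 and 379 FPKM in LH. It had 407, 59.0, 104 and 114 FPKM in FH and 111, 146, 52.8 and 204 FPKM in FL. All LH libraries were under every LL library, FH1 was at the level of LH1, and the log2 fold change of LH over FH was 0.80 (SE 0.67), or 1.47 without LH2. EGFL7 (ENSSSCT00000006406), a protein secreted by endothelial cells, had 945, 1213, 648 and 429 FPKM in LL and 168, 242, 47.9 and 57.9 FPKM in FL. Among high-fecundity sows it had 892, 47.6, 626 and 404 FPKM in LH and 204, 103, 933 and 396 FPKM in FH. FH3 was the highest of these 8 and LH2 the lowest, and the log2 fold change was 0.12 (SE 0.81).

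DUOXA1 (ENSSSCT00000005163), which brings dual oxidases to the cell surface, had the largest contrast of the 11 abundant members with a symbol described here. It had 442, 383, 711 and 127 FPKM in LL and 14.5, 3.3, 8.67 and 20.3 FPKM in FL. LH1, LH3 and LH4 had 196, 198 and 44.0 FPKM, LH2 was listed at 0, and FH1 to FH4 had 30.6, 6.73, 4.54 and 11.1 FPKM. Every luteal library other than LH2 was thus above every follicular one. The log2 fold change of LH over FH was 1.69 (SE 1.31) and did not pass the threshold, and it was 3.42 without LH2, with a limma adjusted p of 0.154, the lowest over its alternatives, which reached 1.00. DUOX2 (ENSSSCT00000005164), a dual oxidase that makes hydrogen peroxide, lies 2 genes from DUOXA1 in the RefSeq order and was also a member. It had 46.4, 36.5, 11.3 and 6.55 FPKM in LL, 0.58, 0, 0 and 0.81 FPKM in FL, 14.0, 2.96, 1.61 and 0 FPKM in LH and 0.61, 0, 0 and 2.66 FPKM in FH. Here LH1 stood out alone in LH, and the log2 fold change was 1.18 (SE 0.87).

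Members that act in RNA synthesis, processing and decay are described next, and like most members they did not pass the threshold in LH against FH. POLR1C (ENSSSCT00000028506), a subunit shared by RNA polymerases I and III, had 589, 577, 594 and 554 FPKM in LL and 438, 508, 417 and 361 FPKM in FL. With 647, 236, 669 and 605 FPKM in LH and 606, 296, 724 and 386 FPKM in FH its groups overlapped, and FH1 and FH3 were as high as LH1, LH3 and LH4. EMG1, LSM1 and SUPT6H, which act in ribosome assembly, RNA decay and transcription elongation, belong to the same role. In all 4 of these members the LH mean was above the FH mean, as in 110 of the 127 members. Of the 4, 0 passed the threshold and 1 passed it without LH2, beside 6.72% and 27.1% of all members tested. EMG1 (ENSSSCT00000025035) had 176, 25.9, 204 and 146 FPKM in LH and 123, 91.7, 95.7 and 92.3 FPKM in FH, with a log2 fold change of 0.11 (SE 0.57).

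FOSL1 (ENSSSCT00000014174), a subunit of the AP-1 transcription factor, was as high in 3 LH libraries as in LL. It had 307, 457, 342 and 462 FPKM in LL, 182, 137, 199 and 65.1 FPKM in FL, 617, 126, 456 and 479 FPKM in LH and 240.4, 191, 300.2 and 196 FPKM in FH. All follicular libraries were exceeded by LH1, LH3 and LH4, while LH2 was under every FH library, and the log2 fold change was 0.66 (SE 0.47), or 1.17 without LH2. CUX2, the other transcription factor, went the same way without LH2, with both past the threshold, in a pair formed after the values were seen. Of these 11 members, RNF167 (a ubiquitin ligase), PHYKPL (a lyase of hydroxylysine breakdown), SPSB2 (an adaptor of a ubiquitin ligase) and EML5 (a protein of the microtubules) remain. Their LL means were 735, 669, 568 and 477 FPKM, and LH2 was the lowest LH library for each. Their log2 fold changes of LH over FH were 0.13 (SE 0.50), 0.36 (SE 0.43), 0.59 (SE 0.43) and 0.12 (SE 0.40), and none of these 4 passed the threshold. Leaving out LH2, 3 of the 11 passed it (TMEM63A, DUOXA1 and FOSL1). The share passing higher in LH without LH2 was 27.1% over all members tested and 1.96% over all transcripts tested. GYS1, PLPP5, EGFL7, POLR1C, EMG1 and THNSL1, a protein related to threonine synthase, were the 6 members with a symbol and an LL mean of 50 FPKM or more whose LH and FH means differed least.

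**Figure D5:**
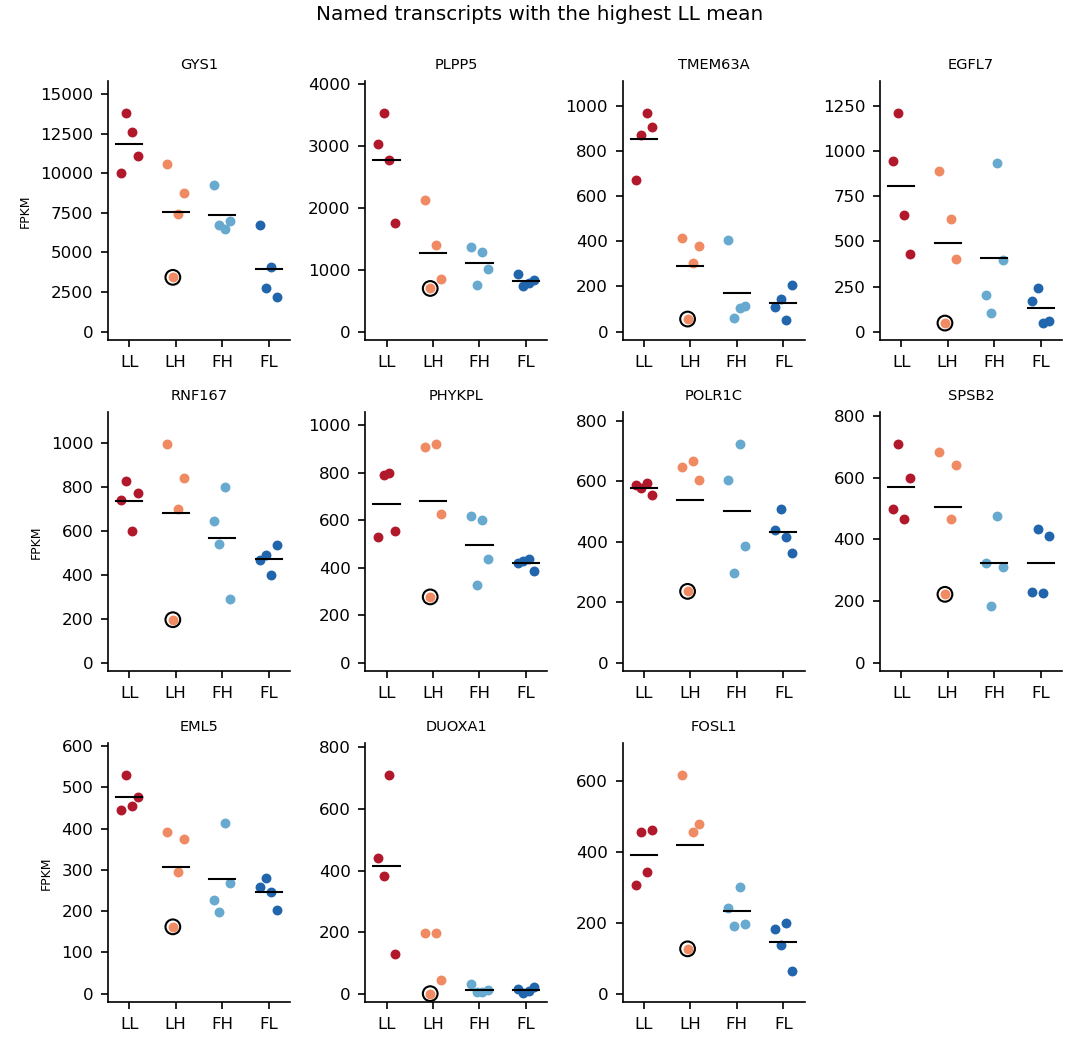
FPKM (linear axis from 0 in each panel) of the 11 abundant members with a symbol described here, in LL, LH, FH and FL. Points are libraries in the order of their number, LH2 is ringed, and bars are means, drawn only where all 4 libraries are above 0. LH2 is the lowest LH library in every panel, and for DUOXA1 and FOSL1 the other 3 LH libraries lie above every FH library.

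The other members with a symbol were sorted by role after their values had been seen. Of these, 0 passed the threshold, beside 6.72% of all members tested. CDC20 (which activates the anaphase-promoting complex), NCAPH2 (a condensin subunit), TACC3 (a spindle protein), CBX1 (a heterochromatin protein) and POLK (a DNA polymerase that bypasses lesions) had log2 fold changes of LH over FH from 0.22 to 1.03. In 4 of these 5 members LH1, LH3 and LH4 were above all FH libraries, and 1 passed the threshold without LH2, in a group formed after the values were seen and beside shares of 35.6% and 27.1% over all members tested. Secreted factors, receptors, channels and signalling proteins numbered 7, among them EGFL7, TMEM63A, myostatin (MSTN), the leukotriene receptor CYSLTR2, TACR2, the PI3-kinase inhibitor PIK3IP1 and the kinase PKN3. Their log2 fold changes ran from -0.75 to 1.12, with the LH mean above the FH mean in 6. TACR2 (ENSSSCT00000011224) had 20.4, 40.3, 5.39 and 16.4 FPKM in LL and 5.83, 0, 0 and 9.23 FPKM in LH, against 3.47, 0, 6.22 and 5.05 FPKM in FH and 0, 0, 3.91 and 4.6 FPKM in FL. Proteins of the cilium and of microtubules (TCTN1, CFAP126, CCDC81 and EML5) were divided, with the LH mean above the FH mean in 2 of 4 and log2 fold changes from -1.24 to 0.95. Protein breakdown and quality control was represented by RNF167, SPSB2, the immunoproteasome subunit PSMB9 and the membrane ATPase ATAD1, with log2 fold changes from -1.19 to 0.74. Members lower in LH than in FH at the threshold numbered 0, and in 0 members was every FH library above every LH library.

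Genes of steroid synthesis could largely not be assessed, since only 3847 of the 27370 transcripts could be linked to a symbol. Of a list of 25 genes of luteal steroidogenesis and cholesterol supply, 6 were linked to a transcript. Of these 6, 0 were members, and 0 of the 2 tested passed the threshold. The 88 members without a symbol could not be checked against this or any other list. STAR, CYP11A1, HSD3B1 and the luteinizing hormone receptor LHCGR were not linked, so the luteal label of the ovaries could not be checked with them. PTGFR (ENSSSCT00000004166), which met the rule apart from the limit of 20 FPKM, had 14.6, 23.1, 5.74 and 13.4 FPKM in LL and 0 in every FL library. In LH it had 2.05, 1.2, 1.52 and 3.29 FPKM, under every LL library, and in FH 0, 8.22, 0 and 5.41 FPKM. Of the matrix list, 2 of 13 linked transcripts were members (TIMP1 and TIMP2), and over the 11 tested 1 was higher and 1 lower in LH. Of the lysosome list, 1 of 10 was a member (CTSB), and 0 of 5 tested passed in either direction. The lists of oxidative stress defence, ribosomal proteins, respiratory chain, granulosa and theca, and cell cycle held 0 members among their linked transcripts. Over the 12 of these that were tested, 0 were higher and 2 lower in LH.

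Several members with a symbol lie beside genes of steroid synthesis. In the RefSeq order of Sscrofa11.1, 37 of the 38 member genes were placed, and 3 had a gene of the steroidogenesis list within 3 genes on either side, or 8.11%. Over all 3045 placed genes with a symbol the share was 0.821%, and over 240 genes of the other transcripts with an LL mean of 20 FPKM or more it was 0.833%. This comparison was added after the member genes had been seen and is a description. LSM1, which takes part in the decay of messenger RNA, lies next to STAR, and PLPP5 lies 3 genes from STAR. LSM1 and PLPP5 lie 2 genes apart and share this neighbour, so the 3 genes do not count as separate cases. LSM1 (ENSSSCT00000027118) had 362, 514, 283 and 151 FPKM in LL and 70.7, 82.0, 82.1 and 48.1 FPKM in FL, values that the choice used. HAO2, an oxidase of hydroxy acids in peroxisomes, lies next to HSD3B1 and was a member through 2 transcripts. ENSSSCT00000034337 had 106, 81.8, 14.3 and 15.1 FPKM in LL, and ENSSSCT00000007361 had 38.4, 51.0, 8.66 and 5.8 FPKM. In both, LL1 and LL2 were far above LL3 and LL4, and neither passed the filter for LH against FH. Whether reads of the neighbouring genes were counted to these members was not tested.

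The members were longer than other transcripts. Their median length was 3544 nt, against 2179 nt for the other transcripts with an LL mean of 20 FPKM or more, 2368 nt for the mirror set and 1434 nt over the table. A length of 3000 nt or more was found for 55.1% of the members and for 36.7%, 39.1% and 19.4% of these other sets. A pair of members, ENSSSCT00000027701 and ENSSSCT00000029370, had identical values in all 16 libraries and cannot be counted as separate measurements. Markers of other cell types were hardly represented, since 8 of the 48 fixed marker genes were linked and the T cell, luteal cell and granulosa cell lists had none. The macrophage marker CD68 ran from 0 to 45.0 FPKM in LL, 16.9 to 35.7 in LH, 24.1 to 73.3 in FH and 22.3 to 53.1 in FL, over 2 summed transcripts. The endothelial markers PECAM1 and CLDN5 summed to at most 2.1 FPKM in LH, at most 1.98 in LL and 0 in FH and FL. Summed levels of the linked smooth muscle, oocyte, epithelial and red blood cell markers reached at most 20.5 FPKM in any library, and their part in the member values was not tested.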

How the data were processed

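Ovaries of 16 sows, 4 in each of LH, LL, FH and FL, were measured by strand-specific RNA sequencing after ribosomal RNA removal. Per the study's methods, the authors mapped reads to Sscrofa10.2 and deposited FPKM values per Ensembl transcript, computed with RSEM. The submitters' processing notes also name HISAT2 2.0.1, StringTie 1.0.4 and DESeq2 1.6.3, and which of these made the table is not given in the sources used here. Abundant transcripts lower the FPKM of the others in a library.

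Samples were grouped and numbered by their titles, and 0 sample columns were left unused. The members and the gene lists were chosen with earlier results of these data known. LL and FL values are described without a test, and comparisons that share these groups with the choice were not tested. For LH against FH, log2(FPKM + 1) was fitted by limma 3.58.1 (R 4.3.3), its variance following a mean trend, on transcripts with 0.5 FPKM or more in at least 4 of the 8 libraries, with two-sided p-values adjusted by Benjamini-Hochberg across every transcript in the fit. A positive fold change means higher in LH. The study's threshold was p under 0.05 and a log2 change of 1. The fragments per library were estimated from the steps of the deposited values, and 91.9 to 94.0% of low values came out whole within 0.05. These estimates cover counting error only.

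Named were the 12 members with a symbol and the highest LL mean, of which 11 are described and 1 is not reported here, all members past the threshold up to 8 in each direction, those nearest the limit of 20 FPKM, the 6 abundant members with a symbol whose LH and FH means differed least, and members of the fixed lists. Genes named beyond that rule (FTL, DUOX2, LSM1, HAO2, PTGFR and the members sorted by role) were chosen after their values were seen. Symbols of 21 members came from the study's differential list, of 17 from its predicted miRNA targets and of 1 through a gene name table. RefSeq genes of Sscrofa11.1, another assembly than that of the table, were used for gene order only. No sequence of a member is printed, as no sequence of its build was used here. Alternatives were another pseudocount, filters, scalings, all 16 libraries, a replicate block, no variance trend, recovered fragments, other LL limits and leaving out each library. Python 3.11.15, pandas 2.3.3 and matplotlib 3.10.9 were used for the rest.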

Additional observations from a re-analysis of the deposited data

Results flagged for a closer look

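A library far from the other 3 of its group was found in 14 of 104 groups of 4 values examined, where chance flags about 1 in 20 for values with a normal spread, which FPKM values with many at 0 need not have. The median position of the members between FL and LL was -0.36 in LH2, far under LH1, LH3 and LH4. LH2 was also far below its group for POLR1C, at 236 FPKM. LH1 was far above for ENSSSCT00000011384, at 566 FPKM. FH1 stood far above FH2, FH3 and FH4 for TMEM63A at 407 FPKM, EMG1 at 123 FPKM, ENSSSCT00000011384 at 30.2 FPKM, TIMP1 at 10.8 FPKM and ENSSSCT00000023142 at 2.64 FPKM, and the last 3 were listed at 0 in those libraries. FH4 did so for ENSSSCT00000033896, at 23.4 FPKM against a listing at 0 in FH1, FH2 and FH3. In LL, LL1 was far above for the lysosomal protease gene CTSB, at 67.9 FPKM, and for ENSSSCT00000023142, at 54.2 FPKM. In FL, FL4 was alone above 0 for ENSSSCT00000005528, at 30.6 FPKM, and FL3 for CTSB, at 4.21 FPKM. The members took 15.2% of the length-weighted FPKM in FL1, above FL2, FL3 and FL4.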

How the results depend on the processing

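The values rest on few estimated fragments per library and 4 sows a group, parity goes with fecundity, no batch was labelled, and replicates are separate animals. The median log2 fold change of LH over FH over the members was above 0 under every alternative run, from 0.18 without LH1 to 0.82 without LH2. The other counts depended on the setting, and where no reason is given the cause was not tested.

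The 8 members past the threshold became 4 with a pseudocount of 0.1 and 13 with median-ratio scaling, and the 1 member without overlap became 2 with that scaling. The 0 members with an adjusted p under 0.05 became 3 with voom on recovered fragments. Leaving out 1 library moved these results over 4 to 32, 1 to 42 and 0 to 1 members. The 32 and 42 were those without LH2, against 4 without LH1 or LH4, 5 without LH3 or FH2, 7 without FH1, 10 without FH3 and 6 without FH4. Without overlap there were 3 members without FH1 or FH4 and 2 without FH3. The 1 adjusted call came without LH2 (ENSSSCT00000004476) or without FH4 (ENSSSCT00000033896).

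Same-numbered LH and FH libraries had correlations of their deviations from 0.0836 down to -0.0441, so the numbers did not pair the sows. With the replicate block 9 members passed higher in LH, 1 had groups without overlap, 0 had an adjusted p under 0.05, and the median stayed at 0.39.

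Among the named members, a change of sign touched only members that did not pass the threshold. GYS1 became 0.22 and CTSB 0.20 with median-ratio scaling, and CTSB became 0.64 and TACR2 0.019 with quantile normalization. Leaving out 1 library gave log2 fold changes of -0.26 to 0.28 for GYS1, -0.20 to 0.33 for PLPP5, -0.39 to 1.03 for EGFL7, -0.17 to 0.65 for RNF167, -0.15 to 0.43 for POLR1C, -0.025 to 0.40 for EML5, -0.19 to 0.79 for EMG1, -0.15 to 0.24 for THNSL1, -0.71 to 0.64 for CTSB, -0.75 to 1.11 for TIMP2 and -1.0 to 0.14 for TACR2. The 8 members past the threshold kept their direction under every alternative that could be run for them. ENSSSCT00000011384, TIMP1 and ENSSSCT00000023142 failed the filter without LH1, LH3, LH4 or FH1 and were not tested there. ENSSSCT00000022831, whose p lay closest to 0.05, was no longer past it without the filter, with the stricter filter, with a pseudocount of 0.1 or with no variance trend, and without LH1, LH3, LH4, FH2 or FH4. ENSSSCT00000011384, TIMP1 and ENSSSCT00000023142, each listed at 0 in most FH libraries, were no longer past it with a pseudocount of 0.1, the first and TIMP1 also without FH2, FH3 or FH4, and the first with no variance trend. ENSSSCT00000004476 was no longer past it without LH3.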

Other observations

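Several of the members with the highest LL means have no symbol here, and the 3 below were singled out after their values were seen. ENSSSCT00000036266, of 156 nt, had 8326, 29729, 13692 and 6835 FPKM in LL and 3293, 5614, 751 and 2649 FPKM in FL. In the high-fecundity sows it had 9331, 2533, 14253 and 9262 FPKM in LH and 13015, 2598, 15159 and 0 FPKM in FH, so that FH1 and FH3 were as high as LH3 and FH4 was listed at 0. ENSSSCT00000023429, of 5084 nt, had 4263, 6656, 4268 and 5801 FPKM in LL, 1255, 896, 565 and 1047 FPKM in FL, 3503, 1194, 2133 and 2199 FPKM in LH and 5098, 874, 4399.8 and 1861 FPKM in FH. FH1 and FH3 were at the LL level and above all LH libraries, and LH2 and FH2 were at the FL level. ENSSSCT00000029023 had 2573, 2589, 2075 and 2463 FPKM in LL and 1254, 1155, 1076 and 1154 FPKM in FL. It had 2796, 632, 1594 and 2351 FPKM in LH and 1336, 1148, 1520.1 and 1148 FPKM in FH, with LH1, LH3 and LH4 above all follicular libraries and LH2 under all of them.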
